A study of Mus musculus with 117 samples.

Results

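Stretches of the autosomes where hepatocytes of the mouse strain CAST/EiJ carried a chromatin state found in none of 8 other inbred strains were examined. Each strain's genome had been divided by the authors into segments that carry 1 of 14 state numbers, and the autosomes 1 to 19 were read in bins of 200 bp. A bin was called private to CAST/EiJ where the other 8 strains shared a state and CAST/EiJ had another. Of 12313718 autosomal bins, 289622 were private to CAST/EiJ, which is 2.35%. The hepatocytes came from 12-week-old females of CAST/EiJ and of the 8 strains it was compared with, WSB/EiJ, PWK/PhJ, C57BL/6J, A/J, NZO/HlLtJ, 129S1/SvImJ, NOD/ShiLtJ and DBA/2J. Each strain had 13 chromatin immunoprecipitation (ChIP-seq) libraries: antibodies to H3K4me1, H3K4me3, H3K27ac and H3K27me3 in each of 3 mice, and 1 input library without antibody. The deposited segmentation of a strain combines these, so each strain is 1 value, there is no error within a strain, and the sequencing depth is unknown. No treatment or engineered allele is named in the labels.

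CAST/EiJ is an inbred strain derived from wild Mus musculus castaneus. PWK/PhJ was likewise derived from wild Mus musculus musculus and WSB/EiJ from wild Mus musculus domesticus, while the other strains are laboratory strains. Hepatocytes make plasma proteins and carry out most of the metabolism and detoxification of the liver. Of the 4 marks, H3K4me3 lies at active or poised gene starts, H3K4me1 at enhancers and around promoters, H3K27ac at active promoters and enhancers, and H3K27me3 is laid down by Polycomb complexes over silenced developmental genes. Which marks make up each state is not given in the sources used here, so states are named by number and described by where they lie.

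The promoters of 5 genes whose start itself fell in a private bin are shown, because at these starts the switch between states 1 to 3 and other states can be placed on a sequence. They are RefSeq sequences of GRCm38.p6, which is the C57BL/6J genome and not that of CAST/EiJ, and each runs from 250 bases before the start to 50 after it, 5′ to 3′ along the gene's strand. Capitals mark a match to the CCAAT box, read as ATTGG on the opposite strand. Gsdma3 lies at chr11:98626099-98626398 on the plus strand, Arhgef3 at chr14:27143743-27144042 on the plus strand, Cx3cr1 at chr9:120068247-120068546 on the minus strand, and Lao1 at chr4:118961717-118962016 on the plus strand. In CAST/EiJ the Gsdma3 promoter lies in a gained run of state 2, that of Arhgef3 in state 2 up to a border with state 4, that of Cx3cr1 in state 4 next to state 2, and that of Lao1 across a border of states 2 and 6. Gm12250, at chr11:58183593-58183892 on the plus strand, lost the shared state 1 there.
Gsdma3: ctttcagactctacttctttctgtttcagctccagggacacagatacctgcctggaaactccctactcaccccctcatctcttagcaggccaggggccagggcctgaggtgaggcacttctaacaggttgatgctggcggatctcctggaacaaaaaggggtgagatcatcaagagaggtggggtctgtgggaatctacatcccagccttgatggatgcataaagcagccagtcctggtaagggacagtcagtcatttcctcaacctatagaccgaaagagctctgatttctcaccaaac
Arhgef3: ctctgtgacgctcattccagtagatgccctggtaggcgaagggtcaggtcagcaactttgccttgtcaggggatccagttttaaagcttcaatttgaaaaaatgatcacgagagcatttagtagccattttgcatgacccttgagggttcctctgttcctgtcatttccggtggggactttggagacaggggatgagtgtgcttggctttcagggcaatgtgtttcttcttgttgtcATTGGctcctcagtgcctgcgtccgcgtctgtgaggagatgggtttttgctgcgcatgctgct
Cx3cr1: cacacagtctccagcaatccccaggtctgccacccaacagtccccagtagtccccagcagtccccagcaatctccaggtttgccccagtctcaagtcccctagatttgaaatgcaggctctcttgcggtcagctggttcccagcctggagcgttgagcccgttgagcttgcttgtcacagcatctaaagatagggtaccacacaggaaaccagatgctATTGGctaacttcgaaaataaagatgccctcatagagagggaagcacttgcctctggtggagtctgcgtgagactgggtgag
Lao1: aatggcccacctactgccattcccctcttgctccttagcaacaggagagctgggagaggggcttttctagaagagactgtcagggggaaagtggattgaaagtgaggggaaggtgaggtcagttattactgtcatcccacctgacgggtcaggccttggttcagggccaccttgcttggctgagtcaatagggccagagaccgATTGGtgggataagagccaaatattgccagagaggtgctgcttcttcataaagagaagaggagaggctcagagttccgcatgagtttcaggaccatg
Gm12250: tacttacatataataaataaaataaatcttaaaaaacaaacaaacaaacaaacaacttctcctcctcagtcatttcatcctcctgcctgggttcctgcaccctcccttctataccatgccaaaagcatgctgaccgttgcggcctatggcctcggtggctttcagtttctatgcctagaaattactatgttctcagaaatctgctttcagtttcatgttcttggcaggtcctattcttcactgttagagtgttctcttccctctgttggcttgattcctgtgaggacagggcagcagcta

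The 5 promoters were searched on both strands for the TATA box core TATAAA, the CCAAT box, the GC box GGGCGG, the E-box CACGTG, an HNF4 half-site form CAAAGTCCA and the forkhead core TGTTTAC. The CCAAT box was found once each in Arhgef3, Cx3cr1 and Lao1, overlapping no other match, and 38.1% of 20085 RefSeq promoters of this length hold it. Gsdma3 and Gm12250 held none of the 6. The promoters held few CpG dinucleotides: 2 in Gsdma3, 8 in Arhgef3, 5 in Cx3cr1, 3 in Lao1 and 3 in Gm12250, against a median of 14 over the 16457 protein-coding genes with a start used here. The 28 genes with a bin going into states 1 to 3 within 1 kb of a start had a median of 4.00, and the 13 genes going the other way had a median of 5.00. The 2388 genes with any private bin near the start had a median of 17.0.

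The labelled cell type was checked at marker genes. In CAST/EiJ all 17 secreted hepatocyte proteins with a start, all 17 hepatocyte transcription factors and 10 of 11 metabolic enzymes had a bin in states 1 to 3 within 1 kb of the start. The exception was Cyp2e1, described below. Bins of states 1 and 3 made up 47.4% and 46.7% of the 555 window bins of these 3 panels. Of markers of other liver cells, 1 of 13 Kupffer cell and leukocyte genes had such a bin in CAST/EiJ (0 to 2 in the other strains), as did 8 of 13 endothelial genes (3 to 11) and 5 of 13 stellate or bile duct genes (3 to 4). Developmental regulators had none, and their 193 window bins were mostly state 13 (44.6%) and state 10 (36.8%), followed by state 12 (14%). The part of other cell types in the private states was not tested.

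State 3 was the most concentrated at gene starts in CAST/EiJ, with 34.6 times its share of all bins within 1 kb of a start, and state 1 had 9.49 times. States 2, 4 and 6 were less frequent near starts than elsewhere, at 0.601, 0.724 and 0.517 times. State 14 covered 76.3% of CAST/EiJ autosomal bins.

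The private share of CAST/EiJ was the second highest of the 9 strains. The other 8 strains ranged from 0.647% in C57BL/6J to 4.56% in PWK/PhJ, with a mean of 1.56% ± 1.30 (SD, n = 8 strains), each value found by the same rule. The difference between CAST/EiJ and this mean did not exceed the spread between strains (exact two-sided permutation of the strain label, p = 0.667). With 9 strains the smallest p this test can give is 0.111, so no strain difference here can pass 0.05. The 9 values also share their comparison strains and are not independent. The rank and share changed with the processing: with states 13 and 14 merged the share was 1.16%, the highest of the 9 strains (others 0.298% to 1.02%), and with chromosome X added CAST/EiJ had rank 3. Leaving out PWK/PhJ also made CAST/EiJ the highest, at 3.42%. A bin can be private only where the other 8 agree, which held in 63.1% of bins for CAST/EiJ, and 3.73% of those 7772612 bins were private.

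**Figure D1:**
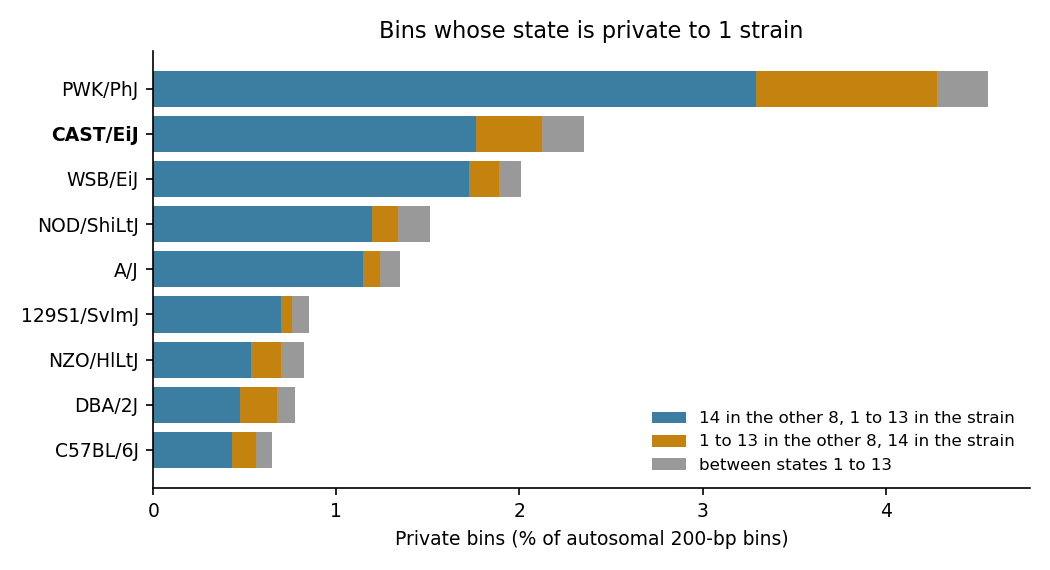
Private bins of each strain as a percentage of autosomal 200-bp bins (x axis), with bars split by the kind of change; each bar is 1 segmentation and has no error bar. CAST/EiJ, at 2.35%, lies second to PWK/PhJ at 4.56%, and gains from state 14 make up most of each bar.

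A further 330801 bins missed the rule by 1 strain, since 7 of the other 8 shared a state that CAST/EiJ did not have. In 34.8% of these the eighth strain was PWK/PhJ carrying the CAST/EiJ state. WSB/EiJ was that strain in 10.4% and each of the others in 5.4% to 8.31%. In 14% the eighth strain had another state again.

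Most private bins of CAST/EiJ were gains, in which the other 8 strains were in state 14 and CAST/EiJ was in states 1 to 13. Gains made up 75.0% of private bins, losses to state 14 made up 15.3%, and exchanges between states 1 to 13 made up 9.74%. The mean over the other 8 strains was 74.6% ± 9.63 for gains and 14.8% ± 7.83 for losses (SD, n = 8), so this split did not set CAST/EiJ apart (exact permutation p = 1 for both). State 14 was also the shared state in 7040783 of the 7772612 bins where the other 8 agreed. Of those 7040783 bins 3.08% were private. The share was lower only for bins shared in state 3, at 1.95%, and reached 10.5% for state 13 and 17.1% for state 2. Gains were thus the most numerous change but not the most frequent per bin open to it.

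Single changes are described beside the values of the other strains, with no test. State 14 to state 13 was the most frequent change, with 123267 bins or 42.6% of private bins, against a mean of 52.6% in the other strains. State 14 to state 4 followed with 55184 bins (19.1%), where the other strains had between 9775 and 25836. State 13 to state 14 held 35375 bins (12.2%) and state 14 to state 6 held 28068 (9.69%), the highest share of the 9 strains. State 14 to state 2 held 5294 bins, or 1.83% of private bins, against 0.11% to 0.721% elsewhere.

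**Figure D2:**
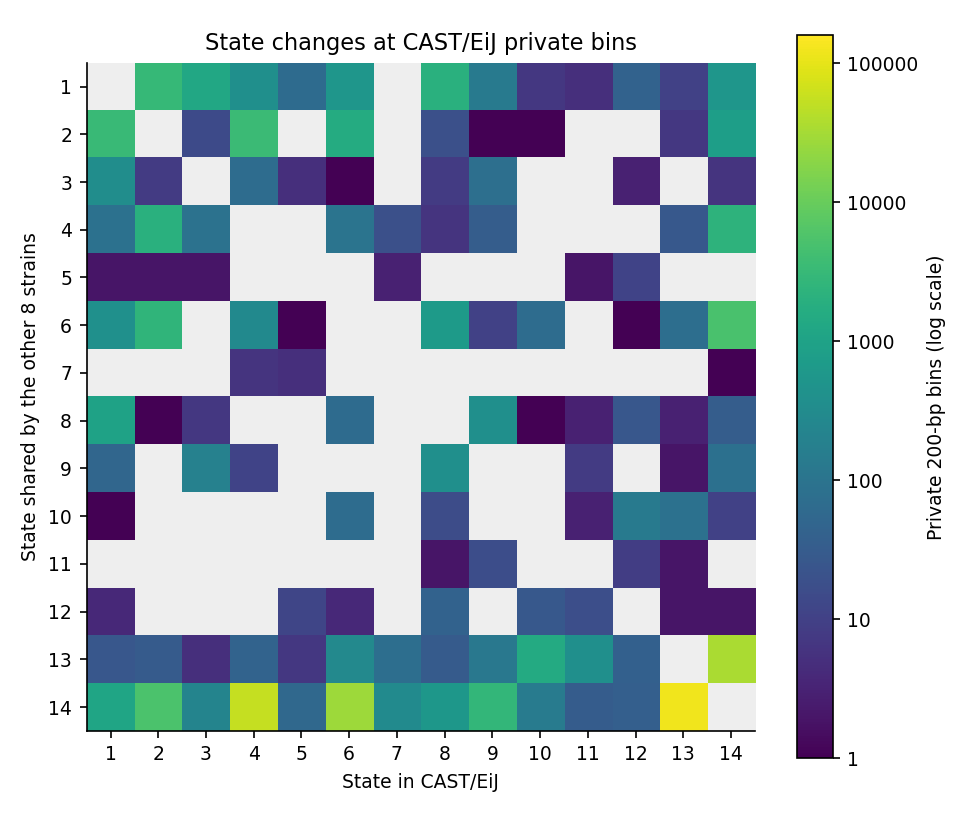
Number of CAST/EiJ private bins for each pair of shared state (rows) and CAST/EiJ state (columns), on a log colour scale; grey cells hold no bin. The bottom row, gains from state 14, is filled throughout and peaks at state 13 with 123267 bins and state 4 with 55184.

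More private bins went into state 4 than out of it. CAST/EiJ had 59439 private bins in state 4 and lost it in 4681, a ratio of 12.7, against 2.32 in PWK/PhJ and 8.25 in WSB/EiJ. Fewer bins were open to such a loss than to a gain, since the other 8 shared state 4 in 43329 bins and state 14 in 7040783. Of bins shared in state 4, 10.8% were private in CAST/EiJ, against a mean of 10.9% for the other strains. The ratio was 34.2 for the rare state 7, 15.4 for the rare state 11, 3.33 for state 6, 3.26 for state 13 and 1.4 for state 2. It was below 1 for state 1 at 0.798. CAST/EiJ also had the largest share of state 4, 3.49% of autosomal bins against a mean of 2.63% ± 0.515 (SD, n = 8) and a highest value of 3.38%. The number of segments moved the same way: 650016 on the autosomes in CAST/EiJ and 548884 to 625553 in the others. The part of these totals in the private bins was not tested.

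Set against each strain's own total of a state, gains from state 14 were still frequent in CAST/EiJ. Of its bins in state 4, 12.8% were such gains, against 3.69% to 7.65% in the other 8 strains. For state 6 the share was 9.01% against 1.37% to 6.21%, and for state 2 it was 1.88% against 0.0730% to 1.36%. CAST/EiJ had the highest share of the 9 strains for 9 of the 13 states. It had rank 2 for state 9, where NOD/ShiLtJ had 18.4%, and rank 3 for states 10, 11 and 13, with PWK/PhJ at 25.4% for state 13.

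**Figure D3:**
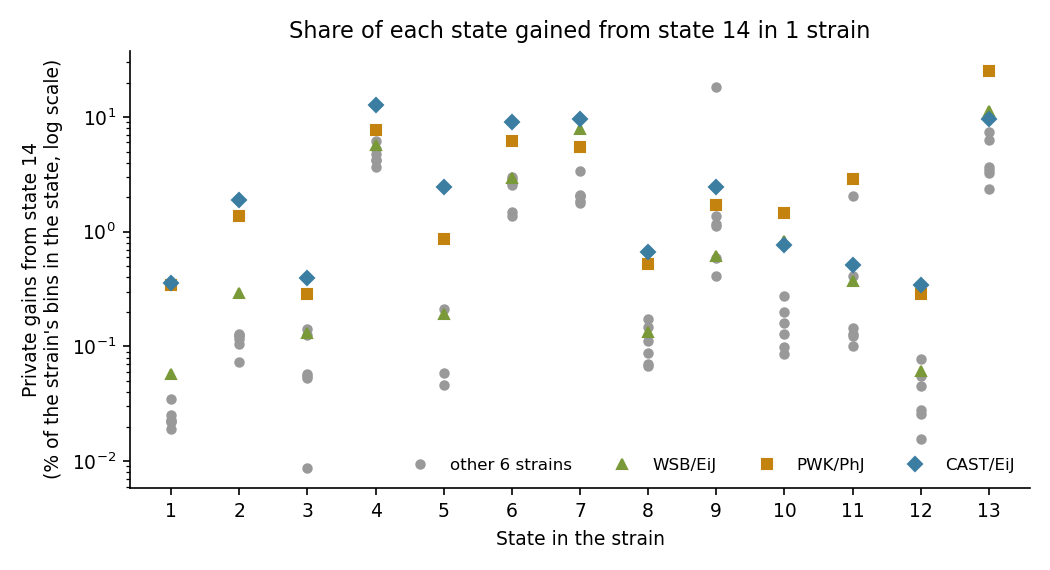
Private gains from state 14 as a percentage of a strain's own bins in each state (y axis, log scale; x axis, state number); each point is 1 strain, and strains at 0 are not drawn. CAST/EiJ points lie highest for states 1 to 8 and 12, with 12.8% for state 4 and 9.01% for state 6.

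Switches from the widespread states 13 and 14 into states 1 to 3 were more frequent in CAST/EiJ than in any other strain. CAST/EiJ had 6713 private bins in states 1 to 3 where the other 8 were in 13 or 14. PWK/PhJ had 5161, WSB/EiJ 1128 and the other strains as few as 241. Per 1000 private bins of the strain this was 23.2 in CAST/EiJ and 1.45 to 9.20 in the others, with p = 0.111 in the exact permutation test, the smallest it can give. With states 13 and 14 merged, CAST/EiJ stayed highest but the gap was small, 53.0 against a highest other value of 46.4. State 2 held 5325 of the 6713 bins, state 1 held 1160 and state 3 held 228. State 2 made up only 1.26% of the window bins of the hepatocyte panels, which states 1 and 3 mostly filled.

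The reverse switch, from states 1 to 3 shared by 8 strains to 13 or 14 in CAST/EiJ, held 1393 bins, of which 826 left state 2 and 561 left state 1. PWK/PhJ had more, 2049, and the lowest strain had 40. Per 1000 private bins the value was 4.81 in CAST/EiJ and 0.502 to 3.65 in the others (exact permutation p = 0.111). CAST/EiJ was not the highest where 7 of the other 8 strains had to share a state (6.98 against 7.02) or with states 13 and 14 merged (9.75 against 16.2). Without PWK/PhJ the count was 3208 bins and the rate 7.61.

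**Figure D4:**
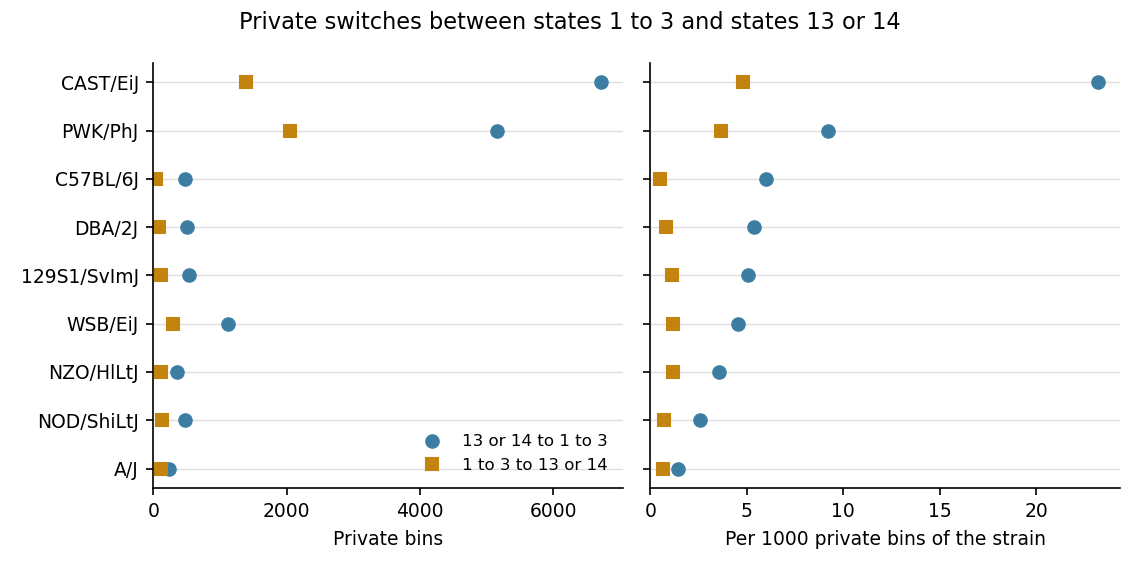
Private bins that switch into (circles) or out of (squares) states 1 to 3, from or to states 13 or 14, as a count (left) and per 1000 private bins of the strain (right); each point is 1 strain. CAST/EiJ is furthest right for switches into states 1 to 3 in both panels, at 6713 bins and 23.2 per 1000.

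Private stretches were short. Adjacent private bins with the same change formed 102202 runs with a median of 400 bp, a mean of 567 bp and a longest run of 15200 bp. Runs of 1 bin were 43.2% of runs but held 15.2% of private bins, and runs of 1200 to 2000 bp held 24.1%. The 160 runs over 5 kb held 1.84%, while PWK/PhJ had 1088 such runs with 6.59% of its private bins. State 14 to 4 and state 13 to 14 runs had medians of 600 bp, and state 14 to 6 and state 14 to 2 runs had medians of 200 bp.

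A run can be a segment border that moved, where a strain's neighbouring segment reaches further, or a segment of its own. In CAST/EiJ 59.2% of private bins lay in runs that touched a bin of the same state in at least 1 other strain, against a mean of 69.3% ± 5.63 (SD, n = 8) and a range of 56.2% to 74.1% (exact permutation p = 0.222). Among losses this border kind made up 88.9% of state 13 to 14 runs, 91.3% of state 6 to 14 and 72.4% of state 4 to 14, but 14.5% of state 2 to 14 and 3.62% of state 1 to 14 runs. Of the gained state 14 to 2 runs 4.64% were. A CAST/EiJ segment was gained from state 14 from end to end in 12.9% of its state 13 segments and 10.7% of state 6. The share was 8.69% for state 4, 1.76% for state 2 and 0.383% for state 1. Segments that were private from end to end but replaced other shared states are not in these shares.

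The longest private run, chr2:16458201-16473400, lay in Plxdc2, a membrane protein gene, and went from state 14 to 13. A neighbour of 10600 bp in the same gene made the same change. The next runs were 14600 bp of state 14 to 13 in Cd200, whose product restrains myeloid cells, and 14600 bp of state 13 to 14 at chr2:114276201-114290800, where no annotated gene lies and Zfp770 is nearest at 74769 bp. Kcnh1, a potassium channel gene, held 2 runs of 12800 and 10800 bp that went from state 13 to 14. Sntg1, a syntrophin gene, held 13400 bp of state 14 to 13. Of the other 3 among the 10 longest, a 13000-bp run lay 265593 bp from Rbfox1 and a 12200-bp run lay 7989 bp from Vgll3, both into state 13. The last, 9400 bp of state 14 to 4, overlapped the long noncoding RNA Gm30320 near Sulf2. So 6 of the 10 longest runs went from state 14 to 13 and 3 the other way.

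Private bins were spread over all autosomes, from 2.08% of chromosome 11 to 2.80% of chromosome 18. In 2454 windows of 1 Mb the median was 2.16% and the 95th percentile 4.80%, and 57 windows held none. The highest window, chr5:130000001-131000000, reached 14.9% with 645 of its 747 private bins in state 13, and it holds Gusb, Caln1 and Galnt17. The window chr16:5000001-6000000, with Rbfox1, reached 14.8% and was also mostly into state 13. Next came 10.6% at chr1:192000001-193000000, with Kcnh1, where losses made up 458 of 528 bins. The window with Plxdc2 on chromosome 2 followed at 9.14%, and that with Hs3st4 on chromosome 7 at 9%, with 339 losses among 450 bins.

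Whole blocks were then taken, meaning unbroken CAST/EiJ stretches outside state 14 over which all 8 other strains were in state 14 throughout. There were 23560 such blocks in CAST/EiJ and 4803 to 34285 in the other strains, and 12782 of them held state 13 alone. In 310 blocks at least 1 bin was in states 1 to 3, against 231 in PWK/PhJ, 46 in WSB/EiJ and 10 to 20 in the remaining strains (exact permutation p = 0.111). Of these 310, 72 were longer than 2 kb. The bins of the 310 blocks were 35.6% state 4, 33.7% state 2, 18.2% state 6 and 8.23% state 1, and none was in state 13.

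The median distance of these 310 blocks to the nearest end of a protein-coding gene was 29.0 kb, and 14 (4.52%) lay within 1 kb. Blocks of this kind in PWK/PhJ had nearly the same values, 28.1 kb and 5.19%. Of all CAST/EiJ private bins, 3.03% lay within 1 kb of a gene end, which is 0.913 times the share of all bins. That value is for single bins of every kind of change and cannot be set directly against whole blocks. Whether the block distances differ from those of the genome at large was not tested. A protein-coding gene was overlapped by 150 of the 310 blocks, or 48.4%. The longest, chr4:15669401-15680000, was built of state 2 (23 bins), state 6 (18) and state 4 (12), with Calb1 nearest at 201264 bp. A block of 8400 bp at chr3:78156001-78164400 had 13 bins in state 2 and 7 in state 1, and lay 898111 bp from Rapgef2. Within genes, Susd4, which encodes a complement regulator, held a block of 8000 bp at chr1:182829201-182837200 with 26 of 40 bins in states 1 to 3. Lta4h, a gene of leukotriene synthesis, held 7200 bp with 10 bins in state 1. Rbms2, an RNA-binding protein gene, held 6400 bp with 16 bins in state 2. Blocks outside state 14 in all 8 others but wholly in state 14 in CAST/EiJ numbered 5871, and 135 of them held a bin where the others were all in states 1 to 3, against 6 to 186 in the other strains.

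Whether gene starts held fewer private bins than their share of the genome depended on the processing. Of private bins 1.44% lay within 1 kb of a protein-coding start, against 1.62% of all bins, a ratio of 0.886. The other strains ranged from 0.750 to 1.81 (exact permutation p = 0.444). For CAST/EiJ the ratio was 1.53 with states 13 and 14 merged, 1.01 where 7 of the other 8 had to share a state, and 0.567 without runs of 1 bin. Genes as a whole held 40.7% of private bins and 40.1% of all bins. Within 1 kb of a start the kinds of change were different in proportion: 56.3% of the 3983 private bins were exchanges, 32.1% gains and 11.6% losses. The most frequent was state 1 to 3 with 559 bins, followed by state 14 to 13 with 516 and state 14 to 4 with 447.

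**Figure D5:**
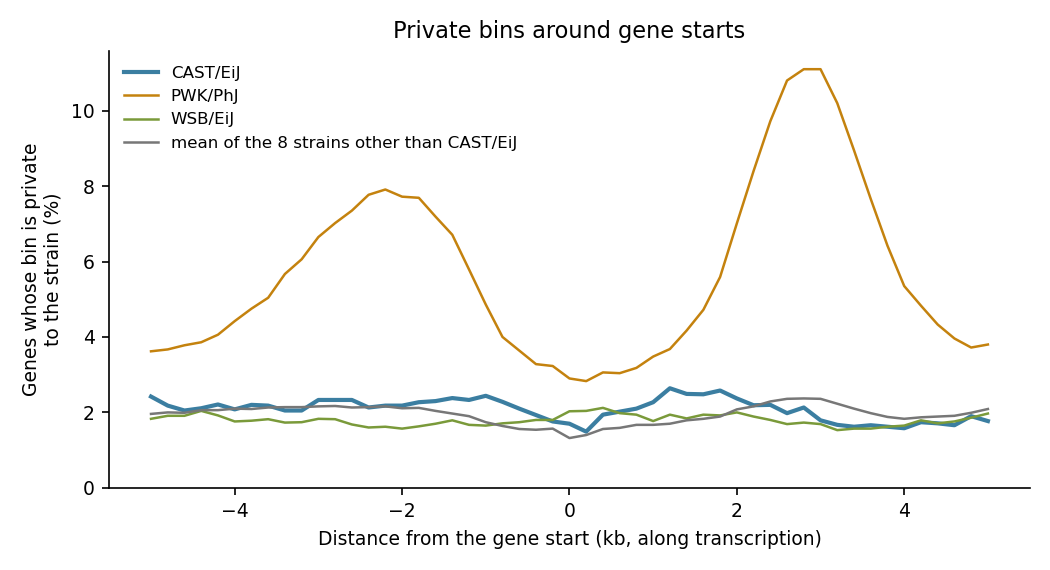
Percentage of 16457 protein-coding genes whose bin at each distance from the start (x axis, kb along transcription) is private to a strain. The CAST/EiJ line stands at 1.70% at the start and 2.44% at 1 kb before it, and PWK/PhJ reaches 11.1% at 3 kb after the start.

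At least 1 private bin lay within 1 kb of a start in 2388 of 16457 protein-coding genes, which is 14.5%. A gene window usually holds 11 bins, and 140 genes had 5 or more private bins. The start bin itself was private in 279 genes. Of all 16457 genes, 28 (0.170%) had a bin going from 13 or 14 into states 1 to 3, and 13 (0.0790%) had a bin going the other way.

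In 6 genes every window bin was private. Ces1a, a carboxylesterase gene of drug and lipid metabolism, was in state 4 in all 11 bins in CAST/EiJ and in state 14 in all 11 in each other strain. The same held for Klrb1a, a natural killer cell receptor gene, for Adgrg7, an adhesion receptor gene, and for Vsig10l. Fmo6, of the flavin-containing monooxygenases, had 10 bins in state 4 and 1 in state 2, and Scgb2b6, a secretoglobin gene, had 11 in state 13. The private run reached 5200 bp at Ces1a and 6400 bp at Klrb1a. Tmprss11g, Gm42226, Fbxw23 and Dppa1 followed with 10 of 11 bins, all gains from state 14. Of these 10 starts none was wholly in states 1 to 3 in CAST/EiJ, and 2 had a single bin in state 2.

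Gsdma3, a gasdermin gene whose family forms membrane pores, had the most bins switching into states 1 to 3. Its window held 3 bins of state 1, 4 of state 2, 2 of state 3 and 2 of state 4 in CAST/EiJ. In 6 strains it held 9 bins of state 14 and 2 of state 6, in WSB/EiJ 10 and 1, and in PWK/PhJ 11 of state 14. CAST/EiJ alone of the 9 strains had bins of states 1 to 4 there, and the promoter printed above lies in the state 2 run chr11:98625601-98626400.

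Cx3cr1, the receptor for the chemokine fractalkine, had 5 bins of state 2 and 6 of state 4 in CAST/EiJ, while each other strain had 9 to 11 bins of state 14. Lao1, an L-amino acid oxidase gene, had 3 bins of state 2, 4 of state 6 and 4 of state 14, against 9 to 11 bins of state 14 elsewhere. Lim2, a lens membrane protein gene, had 3 bins of state 2, 1 of state 4 and 7 of state 14 in CAST/EiJ. Taar6, a trace amine receptor gene, had 2 bins of state 1, 1 of state 2, 1 of state 6 and 7 of state 14. Every other strain had 11 bins of state 14 at both Lim2 and Taar6. Arhgef3 has several starts, and its window of 44 bins held 9 to 15 bins of states 1 and 3 in each strain. Around the printed promoter 9 bins were gained from state 14 into states 2, 4 and 6. D7Ertd443e, Tmem269, Sh2d7 and Ttc41 each had 2 switched bins. At Tmem269 and D7Ertd443e other strains also had bins of states 2, 4 or 6. At Ttc41 each other strain had 7 to 9 bins of state 14 and the rest in other states. At Sh2d7 C57BL/6J and WSB/EiJ had 1 bin of state 6, and the remaining strains had 11 bins of state 14. So none of these starts was in state 14 throughout in every other strain.

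Losses of states 1 to 3 at a start were fewer. Epp13 had 19 of 22 bins in state 14 and 3 in state 13 in CAST/EiJ, and 7 to 16 bins in states 1 to 3 in every other strain. Prxl2b, a peroxiredoxin-like gene, was in state 14 in all 11 bins in CAST/EiJ, where each of the others had 6 to 11 bins in states 1 to 3 and none in state 14. The rule counted only 2 private bins there, because the others alternated between states 1, 3, 8 and 9. Nox4, an NADPH oxidase gene, behaved alike, with 7 bins of state 14 and 4 of state 13 against states 1, 3, 8 and 9. Tnfsf14, a tumour necrosis factor family ligand, was in state 14 in all 11 bins, against 2 to 10 bins of state 2 elsewhere. A/J and NOD/ShiLtJ were also mostly in state 14 there, with 6 and 7 bins, and the others had 0 to 2. Fcna, the complement lectin ficolin A, had 10 bins of state 14 and 1 of state 6, against 3 to 6 bins of state 2. DBA/2J had 4 bins of state 14 at Fcna, NZO/HlLtJ had 1 and the others had none. Whether CAST/EiJ reads aligned less well than those of the other strains at these starts was not tested.

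Steap3, an iron reductase gene, lost part of a broad domain: it had 9 bins in states 1 to 3 of 37 in CAST/EiJ and 17 to 24 elsewhere. At Slc22a30, an organic ion transporter gene, CAST/EiJ had 2 bins of state 1, 4 of state 4, 4 of state 9 and 1 of state 14, where 6 strains had states 1 and 3 in all 11 bins and A/J and NZO/HlLtJ in 10. Cacnb4, a calcium channel subunit gene, and Olfm3, an olfactomedin gene, had no bin of states 1 to 3 in CAST/EiJ and 4 to 9 in every other strain.

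Gm12250, an interferon-induced GTPase gene, had 4 bins of state 4, 2 of state 6 and 5 of state 14 in CAST/EiJ. The other strains had 9 to 11 bins in states 1 to 3, and its start lies in the run chr11:58183601-58184000, where the shared state 1 was replaced by state 6.

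Interferon-induced GTPase and antiviral genes, a list by symbol family of which 20 had a start, were touched in 9, or 45.0%, beside 14.5% of all genes. The same list had 0 to 3 genes touched in the other strains. The touched members were not all at separate places. Private bins of Oas1c, Oas1f and Oas1h lay within chr5:120813201-120862600, and those of Gbp5, Gbp7 and Gbp2 within chr3:142497201-142620000. Gbp5, Igtp and Oas1c had 1 private bin each. The median private share of a member's window was 0, as over all genes, and 7.62% of the list's window bins were private beside 2.04% over all genes. No member met the count of switches between states 1 to 3 and states 13 or 14. Oas1f and Oas1h, oligoadenylate synthetase genes, went from state 13 to 14 in 4 and 2 bins. Oas1f was in state 14 in all 11 bins in CAST/EiJ and had 6 to 11 bins of state 13 elsewhere.

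Gbp7, a guanylate-binding protein gene, exchanged its states along the whole window. In CAST/EiJ it held 7 bins of state 12, 2 of state 11 and 2 of state 13, the states found at developmental regulators. The other 8 strains had 4 to 6 bins in states 1 and 3 and 3 to 5 in state 8, and none had state 11, 12 or 13. Gbp2 had 5 bins of state 1 and 4 of state 8 with 1 each of states 11 and 12, against 7 to 9 bins of state 1. Ifit1, an antiviral gene that binds foreign RNA, had 4 bins of state 1, 3 of state 6 and 3 of state 14, against 6 to 10 bins of state 1 and none of state 14. The gene Gm12250 above carries a symbol outside this list.

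No hepatocyte panel gene had a switch between states 1 to 3 and states 13 or 14. Among secreted proteins 1 of 17 had a private bin, among metabolic enzymes 2 of 11 and among hepatocyte transcription factors 3 of 17, beside 14.5% of all genes. Other strains had up to 2 of 11 enzymes and up to 4 of 17 factors touched. Of the window bins 4.96% were private for the enzymes and 4.70% for the factors, beside 2.04% over all genes. The other strains had at most 4.13% and 2.56%, and most of the bins lay in Cyp2e1 and Hhex. Cyp2e1, a cytochrome P450 that oxidises ethanol and other small molecules, had 10 bins of state 5 and 1 of state 7 in CAST/EiJ. In the other strains its window was in states 1 to 3 in all 11 bins, and 4 of the bins met the private rule. Hhex, a homeobox factor of liver development, was in state 5 in 8 bins and state 3 in 3, against 8 to 10 bins of state 3 and the rest in state 1. State 5 is rare, covering 0.0192% of CAST/EiJ autosomal bins. Rxra, a nuclear receptor partner, went from state 2 to 1 in 4 bins, and Hpd, of tyrosine breakdown, from state 1 to 2 in 2.

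Counts for other lists are given beside the 14.5% of all genes. Cytochrome P450 genes were touched in 12 of 76, UDP-glucuronosyltransferases in 5 of 19 (26.3%, against 0 to 4 genes in the other strains), glutathione transferases in 3 of 20, sulfotransferases in 1 of 17, solute carriers in 36 of 259, serpins in 4 of 53 and Zfp zinc finger genes in 52 of 325. Major histocompatibility genes were touched in 4 of 32 and ubiquitous genes in 1 of 13. Gsta3, a glutathione transferase gene, went from state 3 to 1 in 4 bins, and Sult5a1, a sulfotransferase gene, from state 1 to 2 in 5, where A/J also had states 2 and 4. Slc22a26 went from state 1 to 3 in 6 of 11 bins, with every other strain in state 1 throughout.

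Major urinary protein genes, which encode pheromone carriers, were touched in 3 of 14 (21.4%, beside 14.5% of all genes), against 10 of 14 in PWK/PhJ and 0 to 2 in the others. Mup4 was in state 14 in 10 of 11 bins in CAST/EiJ and in state 13 in 5 to 11 bins elsewhere. Many genes of this family are near-identical copies, so the assignment of reads among such copies is uncertain. Whether this bears on Mup4 was not tested. Olfactory and vomeronasal receptor genes, silent in liver, were touched in 81 of 1254, or 6.46%, below the 14.5% of all genes and against 26% in PWK/PhJ, and 147 of their 185 private bins went from state 14 to 13. Olfr172 was in state 13 in all 11 bins in CAST/EiJ, with 2 bins in A/J and 0 in the other 7 strains.

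Developmental regulators were touched in 3 of 14 (21.4%, beside 14.5% of all genes), and in 0 to 4 in the other strains. Pax2, a kidney and eye development factor, had 11 of 28 bins in state 10 in CAST/EiJ and 0 to 4 in the other strains, the rest being state 13. Among markers of other liver cells, 3 of 13 endothelial, 3 of 13 stellate or bile duct and 1 of 13 Kupffer cell and leukocyte genes were touched. The other strains had 0 to 3, 0 to 4 and 0 to 3 of these. Stab1, a scavenger receptor of sinusoidal endothelium, went from state 4 to 14 in 6 bins and had 4 bins of state 3 beside them, against 0 to 5 elsewhere. Ptprc, the pan-leukocyte gene, went from state 14 to 13 in 3 bins.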

How the data were processed

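ChIP-seq libraries of 4 histone marks and input, 117 in all, were assigned to strains from their labels. The authors deposited 1 segmentation per strain, in which the column used holds a category, the state number, and not a count or signal. Per the submitters' processing notes, the build was mm10, and FastQC 0.11.5 and MACS 1.4.2 were named without a role. The aligner, the segmentation tool and the mark content of states are not given in the sources used here. Nor is it given whether the reads of each strain were aligned to mm10 or to a genome of that strain. The part of this choice in the private states, gains and losses alike, was not tested. A joined table identical to the strain tables was not used.

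States were read in 200-bp bins with Python 3.11.15, numpy 2.4.6, pandas 2.3.3 and scipy 1.17.1, and figures were drawn with matplotlib 3.10.9. The scripts were tested on simulated data. RefSeq starts of GRCm38.p6, which has the chromosome coordinates of mm10, were available for 16457 of 20665 protein-coding autosomal genes, on 18 autosomes. Strain values were compared by exact two-sided permutation of the strain label. Named genes were the 10 with the highest private share of the start window, the 10 with most switches in each direction, those in the 10 longest runs and the highest members of each list. Genes in the 20 longest gained blocks, further interferon list members and 1-Mb window genes were named after their values were seen. The members and lists were chosen with earlier results of these data known, and the block and marker-state counts were added after the private bins had been seen. Alternatives left out each strain, asked for 7 of 8, used 1000-bp bins, merged states 13 and 14, dropped short or border bins, added chromosome X and changed gene windows.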

Additional observations from a re-analysis of the deposited data

Results flagged for a closer look

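Each of 36 measures was examined over the 9 strains for a highest or lowest value far from the rest, by the gap to the nearest value over the whole range. Chance gives such a gap in about 1 in 20 groups, and many of the measures overlap. CAST/EiJ stood out in 1: its 23.2 private bins per 1000 that went from states 13 or 14 into states 1 to 3 lay above the next strain at 9.20, with a gap of 0.644 of the range. With states 13 and 14 merged the values were 53.0 and 46.4, so this gap depends on keeping those states apart. PWK/PhJ stood out in its number of private bins, 561176, where CAST/EiJ was next with 289622. The same was so of its private share of 4.56%. NZO/HlLtJ stood out with a median private run of 200 bp, where the other 8 strains all had 400 bp.

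Chromosome X, kept out of the autosomal results, held 8563 bins private to CAST/EiJ, or 1.00% of its 855156 bins, rank 3 of the 9 strains (0.193% to 9.06% in the others). Of these, 5.34% were gains from state 14, beside 75.0% on the autosomes.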

How the results depend on the processing

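No paired analysis was possible because each strain is 1 segmentation and the columns carry no replicate. The strain test cannot pass 0.05 with 9 strains or fewer, so its p says nothing on stability, and the count of genes touched has no test. The rank of CAST/EiJ as highest in switches into states 1 to 3 held in all 14 other settings. With each other strain left out in turn, the private share ranged from 2.52% to 3.42%, gains from 66.3% to 75.1%, losses from 14.8% to 22.6%, border bins from 56.8% to 59.8%, start bins from 1.44% to 1.54%, touched genes from 2615 to 3123 and switches from 7020 to 9956, and the median run was 400 bp each time. The private share was 5.04% with 7 of 8, 1.56% without near-border bins and 1.16% with states 13 and 14 merged. The gain share, near the mean of the others at 75.0%, fell below it with 7 of 8 strains (65.9%), without single-bin runs (77.7%) and without bins within 1 bin of the shared state (74.1%). It also did without C57BL/6J (73.7%), DBA/2J (73.2%), NZO/HlLtJ (73.3%) or PWK/PhJ (66.3%). The loss share fell below it with states 13 and 14 merged (6.4%) and with chromosome X (16.8%), and without 129S1/SvImJ (15.3%), A/J (14.8%), NOD/ShiLtJ (15.4%) or WSB/EiJ (15.4%). The median run fell below the mean without single-bin runs (600 bp) and near-border bins (400 bp), and equalled it with 7 of 8 (400 bp), 1000-bp bins (1000 bp), merged states (200 bp) and without WSB/EiJ (400 bp). Genes touched numbered 4943 with 7 of 8, 1036 with 1000-bp bins, 771 without single-bin runs, 883 without near-border bins, 1336 with 500-bp and 3993 with 2-kb windows, 3594 with all annotated genes and 4239 with both gene ends. The cause of these shifts was not tested. Depth is unknown, so its limits cannot be given.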

Other observations

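The shares of gains and losses among CAST/EiJ private bins varied between chromosomes, and the other strains were not examined in this way. The share of CAST/EiJ private bins that were gains from state 14 ran from 62.5% on chromosome 11 to 82.4% on chromosome 10, and losses ran from 8.69% on chromosome 10 to 23.2% on chromosome 11. Chromosome 2 held the most bins going from states 13 or 14 into states 1 to 3, with 615, and chromosome 4 the most going the other way, with 161.

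The 1-Mb window with most switches into states 1 to 3 was on chromosome 2 from 177 Mb, a cluster of zinc finger genes, with 64 bins. The window on chromosome 1 from 182 Mb, which holds the block in Susd4, had 58. The longest switched runs were 2800 bp of state 1 at chr2:171960601-171963400, with Cbln4 the nearest protein-coding gene, and 2600 bp of state 2 in Susd4. In the other direction, 3000 bp of shared state 1 was absent at chr16:23193401-23196400 beside St6gal1, a sialyltransferase gene, and 2400 bp of shared state 2 was absent in Foxo3, a forkhead factor of metabolic control.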
